A study of Mus musculus with 6 samples.

Results

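The MAP kinase dual-specificity phosphatases are the enzymes that switch off ERK, JNK and p38 by removing the phosphates from both the threonine and the tyrosine of the kinase activation loop. The 10 genes Dusp1, Dusp2, Dusp4, Dusp5, Dusp6, Dusp7, Dusp8, Dusp9, Dusp10 and Dusp16 were taken by name from the 53657 gene names of the count tables. No measured value entered that rule, but the family was chosen with earlier results of these data known. RNA was sequenced from tdTomato+ MCAM-bright undifferentiated spermatogonia (Aundiff) of adult mice, 3 WT and 3 MUT, 3 months after tamoxifen. Both groups carried the Gfra1-creERT2 driver and the tdTomato reporter and had received the same 2 courses of tamoxifen, and the MUT mice carried in addition the FR-Hras allele, whose recombination leaves a heterozygous Hras G12V mutation under the endogenous promoter. The WT mice were controls without that allele. Recombination rests on the Gfra1 promoter and is mosaic, so that a MUT library can hold cells without the mutation, and the mutated fraction of each library was not analysed here. The comparison asks how far transcripts of the phosphatases that restrain RAS signalling differ between spermatogonia with and without hyperactive HRAS.

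In many cells these phosphatases form a negative feedback loop: ERK activity drives transcription of several of them, and their protein products then dampen ERK. Dusp1, Dusp2, Dusp4 and Dusp5 encode nuclear enzymes that are rapidly induced by growth factors or stress. Dusp6, Dusp7 and Dusp9 encode cytoplasmic enzymes with a preference for ERK, and Dusp8, Dusp10 and Dusp16 encode enzymes with a preference for JNK and p38. In spermatogonial stem cells GDNF acts through GFRA1 and RET on the RAS and ERK pathway, among other routes.

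All of these enzymes share a catalytic signature, a histidine and cysteine, then any 5 residues, then an arginine. The cysteine attacks the phosphate and the arginine holds it. The coding bases around the signature are shown for one gene of each class, with Dusp5 for comparison with Dusp6, because they show how one catalytic core is written in genes of different kinase preference. Each line runs 5′ to 3′ on the coding strand, with the cysteine and arginine codons in capitals, and positions are on GRCm38.
Dusp1, chr17:26506583-26506621, minus strand, exon 4 of 4: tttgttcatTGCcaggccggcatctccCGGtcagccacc
Dusp5, chr19:53540945-53540983, plus strand, exon 4 of 4: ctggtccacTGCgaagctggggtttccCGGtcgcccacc
Dusp6, chr10:99266021-99266059, plus strand, exon 3 of 3: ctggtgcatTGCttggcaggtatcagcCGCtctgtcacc
Dusp16, chr6:134720550-134720588, minus strand, exon 6 of 7: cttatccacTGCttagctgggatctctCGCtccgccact
A single signature was found in the longest coding sequence of each of the 10 genes, and it lay within one exon in each. Of the 39 bases, 17 were the same in all 10 genes. Against Dusp6, the stretch had 31 identical bases in Dusp9 and 30 in Dusp7, the other cytoplasmic ERK phosphatases, and between 24 and 28 in the remaining 7 genes. No exon of another gene overlapped the exons of 9 of the genes, and in Dusp8 the overlap was 66 of 4870 exon bases, so shared exon bases touched at most 1.36% of a gene's length.

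The 6 libraries held between 22729292 and 23550433 counted fragments. All 10 phosphatase genes passed the filter on low counts, among 19656 genes tested. Hras itself, counted over both alleles together, stood at 56.8, 60.1 and 65.2 CPM (counts scaled to library size) in WT and at 69.9, 69.1 and 61.0 CPM in MUT. The groups overlapped (log2 fold change 0.14, SE 0.083), and a gene count cannot show the G12V base, so this value does not check the genotype labels. Markers of undifferentiated spermatogonia were present in all libraries, Gfra1 at 104 to 147 CPM and Zbtb16 at 303 to 469 CPM. Markers of other cells were present too: the 5 macrophage markers summed to 545 to 920 CPM in WT and 479 to 594 CPM in MUT, the 5 spermatid markers to 857 to 1459 and 593 to 1131 CPM, and the 6 Leydig cell markers to 13.2 to 21.1 and 12.9 to 67.3 CPM, the highest being in MUT 3. The log2 fold changes of all 5 spermatid markers (median -0.56) and all 5 macrophage markers (median -0.31) were below 0. Those of all 5 tested Leydig cell markers (median 0.98) and of 4 of 5 tested Sertoli cell markers (median 0.19) were above 0. At an FDR of 0.1 by edgeR 0 of these were called, and 1 spermatid and 1 Sertoli cell marker had an unadjusted p under 0.05. No marker was at 0 in any library. In bulk RNA of this kind, fewer cells of a type and less RNA per cell cannot be told apart.

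The level of each phosphatase was first compared with that of the others in these libraries. They also hold RNA of other cells, so a level cannot be assigned to spermatogonia alone. For the comparison the fragments were divided by exon length (FPKM, fragments scaled to library size and exon length), since raw counts of genes of different length are not comparable. On this scale Dusp1 was the highest in all 6 mice, at 53.4 ± 10.1 FPKM (SD, n = 6). Dusp6 at 38.4 ± 4.84 FPKM and Dusp9 at 35.8 ± 2.43 FPKM came next. Dusp5 followed at 23.1 ± 2.72 FPKM and Dusp7 at 15.9 ± 1.04 FPKM. A gap then separated the low members: Dusp2 stood at 6.56 ± 1.04, Dusp4 at 6.43 ± 1.17, Dusp10 at 5.91 ± 0.516 and Dusp16 at 4.96 ± 0.266 FPKM. The lowest was Dusp8, at 2.54 ± 0.510 FPKM.

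Of the 9 neighbouring pairs in this order, 6 held their direction in 6 of 6 mice (exact two-sided sign-flip permutation test, p = 0.0313 each, the smallest that 6 mice allow, and 0.0469 after Benjamini-Hochberg adjustment over the 9 pairs). The order was taken from the same 6 mice, WT and MUT together, so the p-values do not test an order set beforehand. They describe how alike the mice were, and not the error of dividing by exon length. The largest step was the one from Dusp7 to Dusp2, a ratio of 2.44. The levels of Dusp6 and Dusp9, both cytoplasmic ERK phosphatases, did not differ beyond their spread (ratio 1.07, Dusp6 higher in 4 of 6 mice, adjusted exact p = 0.402). Dusp9 was the higher of that pair in MUT 2 and MUT 3. Dusp2 and Dusp4 (higher in 3 of 6 mice, adjusted exact p = 0.844) and Dusp4 and Dusp10 (3 of 6 mice, adjusted exact p = 0.492) were not separated either.

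**Figure D1:**
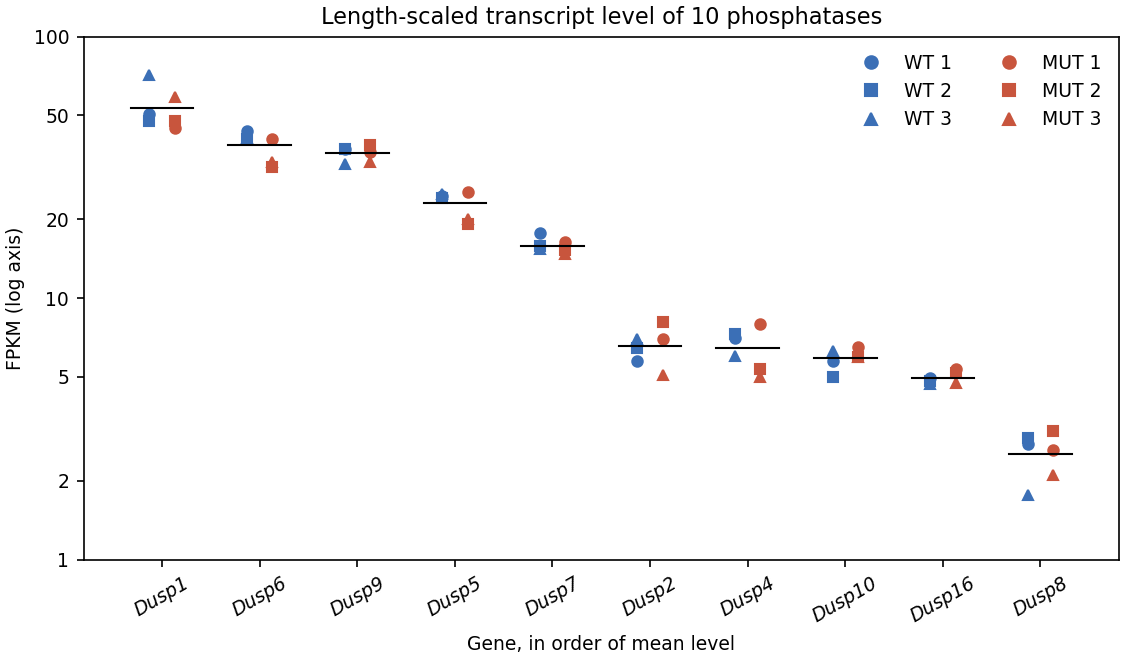
Level of each phosphatase in FPKM, on a log axis, with one symbol per mouse (blue WT, red MUT, shape for the mouse number) and a black line at the mean of the 6 mice. Dusp1, at a mean of 53.4 FPKM, lies above the rest in all mice, 4 further genes lie between 15.9 and 38.4 FPKM, and the other 5 have means of 6.56 FPKM or less.

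Taken by class, the 4 nuclear inducible genes made up 44.0% to 51.8% of the summed FPKM of the family in each mouse, with the highest share in WT 3. The 3 cytoplasmic ERK genes made up 42.2% to 49.3%, and the 3 JNK and p38 genes 6.04% to 7.92%. Dusp1 alone gave 23.2% to 33.8%. The summed level of the family was 201 ± 9.69 FPKM in WT and 185 ± 6.67 FPKM in MUT (SD, n = 3 each). The groups overlapped, with WT 2 at 191.7 and MUT 1 at 192.7 FPKM, and the difference of the sums was not tested.

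In the comparison of MUT with WT, no phosphatase passed the test. By edgeR's quasi-likelihood test at an FDR of 0.1, 0 of the 10 were called and each had an adjusted p of 0.998, beside 2 of all 19656 genes (0.0102%), both lower in MUT. At an unadjusted p under 0.05 there was 1 member, Dusp6, against 547 of all genes (2.78%). Counting only genes that were lower in MUT at that unadjusted p, the background was 284 genes (1.44%). Of the 10 log2 fold changes 5 were above 0 and 5 below, with a median of -0.033 beside 0.0066 for all genes. The WT and MUT values overlapped for all 10 genes in CPM, whereas they did not overlap for 1512 of all genes (7.69%). Scaled by DESeq2 size factors in place of TMM they overlapped for 9 of the 10, the exception being Dusp6, and did not overlap for 1463 of all genes (7.44%).

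The 95% intervals give the precision of these estimates, gene by gene and not for the 10 together, in the fit with all mice. For all 10 genes the 95% interval of the fold change lay within 1.5-fold in either direction, which held for 59.1% of all genes tested and for 92.4% of the 8157 genes with mean CPM in the range of the members. That bound was chosen after the values were seen, so that all 10 lie within it is not a test. The estimates also rest on single mice: without MUT 1 the log2 fold change of Dusp4 was -0.40 (SE 0.140). The size of the log2 fold change, regardless of sign, had a median of 0.096 in the family, 0.061 in genes of like level and 0.096 over all genes. The widest intervals belonged to the low or variable genes, Dusp8 (0.750-fold to 1.48-fold), Dusp4 (0.672-fold to 1.20-fold) and Dusp2 (0.793-fold to 1.39-fold).

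**Figure D2:**
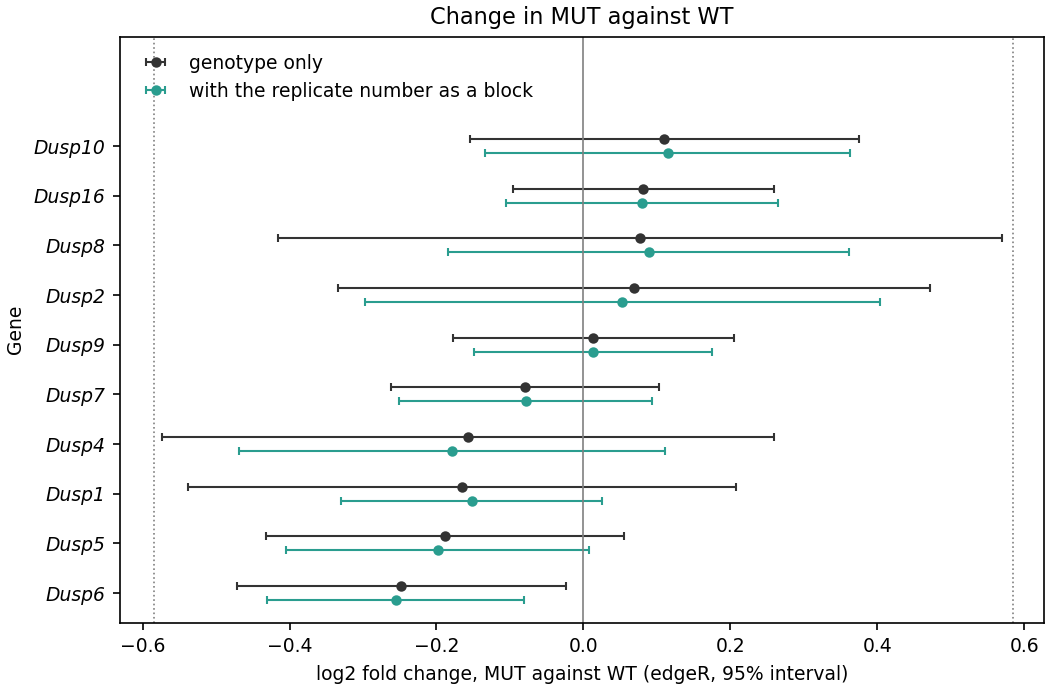
Log2 fold change of each phosphatase, MUT against WT, with its 95% interval, from the fit with genotype alone (black) and the fit with the replicate number as a block (green); dotted lines mark a 1.5-fold change. All black intervals lie between the dotted lines, and among them only that of Dusp6 (-0.47 to -0.024) leaves out 0.

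Dusp6 encodes the cytoplasmic phosphatase that binds ERK and is itself transcribed in response to ERK, which makes it a common readout of pathway output. It stood at 137, 127 and 128 CPM in WT 1 to 3 and at 127, 99.2 and 104 CPM in MUT 1 to 3. The counts behind these values were 3124, 2977 and 3032 in WT and 2913, 2287 and 2422 in MUT. MUT 2 and MUT 3 were below all WT mice, whereas MUT 1 lay at the level of WT 2, so the groups overlapped narrowly in CPM. With DESeq2 size factors the order of these near-equal values turned, MUT 1 lying at 11.518 and the lowest WT mouse, WT 3, at 11.521 on the log2 scale of scaled counts, and the groups did not overlap. The means were 131 ± 5.13 CPM in WT and 110.0 ± 15.1 CPM in MUT (SD, n = 3 each). The log2 fold change was -0.25 (SE 0.098, 95% interval -0.47 to -0.024), a ratio of 0.842. The MUT mouse was the lower in 3 of 3 same-numbered pairs, although the labels do not say that these are pairs. An exact two-sided sign-flip test over the 3 pairs gave p = 0.25, the smallest they allow, as it did for each gene below with 3 of 3 pairs in one direction. The exact two-sided permutation test over the 6 mice gave p = 0.2 in CPM and p = 0.1, the smallest the design allows, with DESeq2 size factors. A fit that kept the replicate number as a block gave a log2 fold change of -0.26 and an adjusted p of 0.424. In that fit 13 genes of 19656 (0.0661%) were called and 1297 had an unadjusted p under 0.05 (6.6%), and Dusp6 was again the 1 member among the latter. The unadjusted edgeR p of Dusp6 was 0.034 with all mice, and 0.078 without WT 1, 0.11 without MUT 2 and 0.11 without MUT 3. It was 0.046 without WT 2, 0.038 without WT 3 and 0.0020 without MUT 1. In each of these fits the adjusted p was 0.713 or more.

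Dusp7 and Dusp9 encode the other ERK-selective cytoplasmic enzymes. Dusp7 stood at 59.3, 53.2 and 51.7 CPM in WT and at 54.8, 51.1 and 49.5 CPM in MUT. Its log2 fold change was -0.079 (SE 0.080, exact permutation p = 0.4), with overlapping groups and the lower value in the MUT mouse in 3 of 3 pairs. Dusp9, an X-linked gene known from the placenta, stood at 101, 101 and 88.8 CPM in WT and at 98.5, 105 and 90.2 CPM in MUT. This was the smallest difference of the family (log2 fold change 0.014, SE 0.084, exact permutation p = 0.9), and both groups had their lowest value in mouse 3. The 95% interval of the Dusp9 ratio ran from 0.884 to 1.15.

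Among the nuclear inducible genes, Dusp5 encodes the enzyme that acts on ERK in the nucleus and holds it there. Its values were 60.8, 59.6 and 61.7 CPM in WT and 62.9, 47.3 and 49.7 CPM in MUT. The WT mice lay close together (60.7 ± 1.09 CPM, SD, n = 3) and the MUT mice were spread (53.3 ± 8.40 CPM), with MUT 1 above all WT mice and MUT 2 and MUT 3 below them. The log2 fold change was -0.19 (SE 0.107, exact permutation p = 0.4).

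Dusp4, whose product acts on ERK and other MAP kinases, stood at 19.4, 20 and 16.4 CPM in WT and at 21.7, 14.7 and 13.6 CPM in MUT. Here too MUT 1 was the highest of all mice and MUT 2 and MUT 3 the lowest. The log2 fold change was -0.16 (SE 0.183, exact permutation p = 0.5). Without MUT 1 the values of the 3 genes were -0.37 for Dusp6, -0.33 for Dusp5 and -0.40 for Dusp4, each with an unadjusted p under 0.05, beside 407 of 20272 genes (2.01%) in that fit, and each with an adjusted p of 0.99994 by edgeR. That fit leaves out the mouse in which Dusp4 and Dusp5 were highest, so its small p-values follow in part from that choice. With 3 MUT mice it cannot be told whether MUT 1 or the other MUT mice are the exception. In the other fits at most 1 member had an unadjusted p under 0.05. Without MUT 3 the log2 fold change of Dusp4 was -0.030.

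Dusp1, the classical immediate early phosphatase, stood at 136, 128 and 192 CPM in WT and at 121, 128 and 159 CPM in MUT. WT 3 was the highest mouse and MUT 3 the second highest. The log2 fold change was -0.16 (SE 0.163, exact permutation p = 0.5), and it was 0.039 without WT 3. In the fit with the block the standard error was 0.080 and the adjusted p 0.826, and the MUT mouse was lower in 3 of 3 pairs, although the values of the second pair were nearly equal. WT 3 also held the highest value for 13 of 19 immediate early genes that tissue dissociation induces, for 5 of 5 macrophage markers and for 4 of 5 spermatid markers. Fos, for example, stood at 542 CPM in WT 3 and between 374 and 441 CPM in the other mice, and the macrophage marker Lyz2 at 484 CPM against 235 to 283 CPM. The part of dissociation or of other cells in the Dusp1 level was not tested.

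Dusp2, best known from activated lymphocytes and other blood cells, was low. It stood at 11.5, 12.9 and 14.03 CPM in WT and at 13.99, 16.2 and 10.2 CPM in MUT, and its highest and lowest values were both in MUT. The log2 fold change was 0.069 (SE 0.176, exact permutation p = 0.9), and its sign turned without MUT 2 (-0.098) and without WT 1 (-0.0096).

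**Figure D3:**
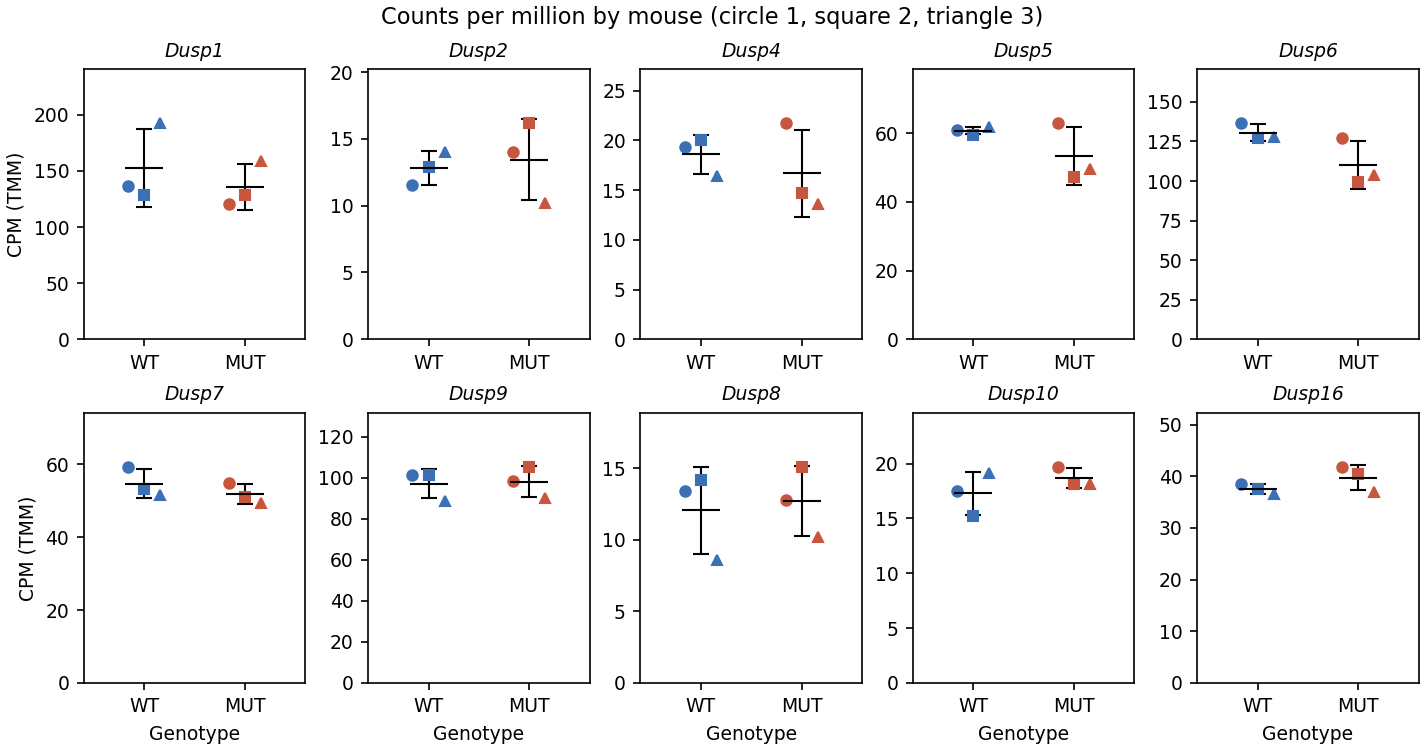
CPM of each phosphatase in the 3 WT (blue) and 3 MUT (red) mice, with the mean as a black dash, the SD as a bar (n = 3) and vertical axes that start at 0. On this scale the groups overlap in all 10 panels (with DESeq2 size factors those of Dusp6 do not), and in Dusp4, Dusp5 and Dusp6 the MUT mice 2 and 3 lie below all WT mice while MUT 1 does not.

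The 3 genes for JNK and p38 phosphatases all had log2 fold changes above 0, and none passed a test. Dusp16 stood at 38.5, 37.5 and 36.6 CPM in WT and at 41.8, 40.5 and 37.0 CPM in MUT, the higher value being in the MUT mouse in 3 of 3 pairs (log2 fold change 0.082, SE 0.078, exact permutation p = 0.3). Dusp10, whose product acts on JNK and p38, stood at 17.5, 15.2 and 19.1 CPM in WT and at 19.7, 18.1 and 18.1 CPM in MUT (log2 fold change 0.11, SE 0.116, exact permutation p = 0.4). In neither gene did the MUT values clear all WT values, since MUT 3 lay within the WT range.

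Dusp8 was the most variable of the family, with a 1.76-fold range over the 6 mice. It stood at 13.4, 14.1 and 8.58 CPM in WT and at 12.8, 15.1 and 10.2 CPM in MUT. Mouse 3 was the lowest in both groups, and the log2 fold change of 0.077 (SE 0.216, exact permutation p = 0.7) was -0.12 without WT 3. The biological coefficient of variation estimated by edgeR was 0.197 for Dusp8, against 0.082 to 0.169 for the other members and a median of 0.142 over all genes.

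The pattern of Dusp6 across mice was then set beside that of other pathway genes. Likeness was measured as the root mean square difference of log2 CPM, each gene centred on its own mean over the 6 mice, among 26 MAP kinases and ERK feedback or target genes. The nearest genes were Etv4 (0.064), an ETS transcription factor induced by ERK, and Spry4 (0.093) and Spry1 (0.096), which encode Sprouty inhibitors of receptor signalling. Among the phosphatases the nearest was Dusp5 (0.046), followed by Dusp7 (0.12) and Dusp4 (0.14). These likenesses rest on the same 6 libraries and describe them only, and genes chosen as nearest share the profile of Dusp6 by that choice.

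Etv4 stood at 84.7, 78.8 and 73.5 CPM in WT and at 81.7, 59.8 and 68.3 CPM in MUT. Spry4 stood at 46.5, 42.8 and 39.9 CPM in WT and at 48.6, 32.1 and 36.8 CPM in MUT. Both were lowest in MUT 2 and next lowest in MUT 3, with MUT 1 above at least 1 WT mouse. Etv5, a GDNF target of spermatogonia, stood at 161, 158 and 121 CPM in WT and at 160.0, 109 and 120.3 CPM in MUT, so that it was low in WT 3 as well. The summed level of 10 markers of undifferentiated spermatogonia, of which Etv5 is one, was 2653, 2545 and 2081 CPM in WT and 2702, 2292 and 2287 CPM in MUT. It was lower in WT 3, MUT 2 and MUT 3 than in the other 3 mice, as was Dusp4. Within that list 4 genes had log2 fold changes above 0 and 6 below. The MUT values lay above all WT values for 2 of the 10, as they did for 922 of the 19656 genes tested. Lin28a was among the 2, at 383 to 429.8 CPM in MUT and 324 to 351 CPM in WT (log2 fold change 0.26, adjusted p = 0.998 by edgeR). The 4 markers of differentiating spermatogonia summed to 502, 563 and 545 CPM in WT and to 592, 726 and 587 CPM in MUT, and 3 of the 4 were highest in MUT 2, the mouse in which Dusp5 and Dusp6 were lowest. All 4 had log2 fold changes above 0 and 0 were called, with Kit at 0.36 (SE 0.158) and Stra8 at 0.28 (SE 0.111) under an unadjusted p of 0.05. The part of cell composition in the levels of Dusp4, Dusp5 and Dusp6 was not tested.

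**Figure D4:**
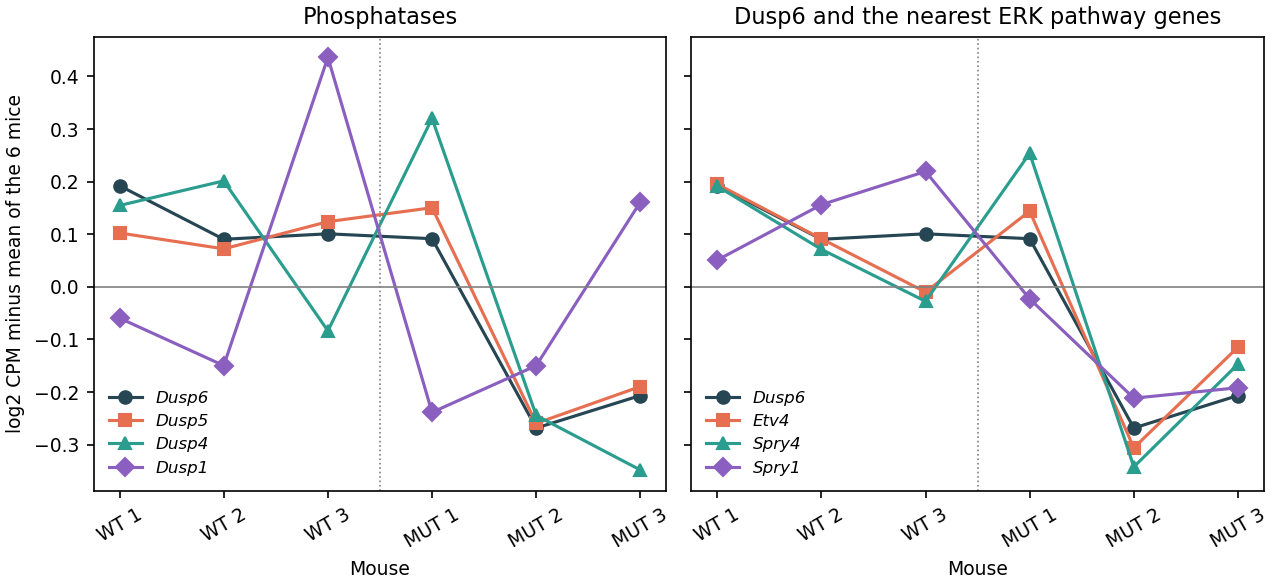
Log2 CPM of each gene minus its mean over the 6 mice, with one point per mouse (lines join the points of a gene and carry no order of mice) and a dotted line between WT and MUT. Dusp4, Dusp5 and Dusp6 (left) and Etv4, Spry4 and Spry1 (right) lie below 0 in MUT 2 and MUT 3, whereas Dusp1 is highest in WT 3. Etv4, Spry4 and Spry1 were taken as the nearest to Dusp6 of 26 pathway genes, so their likeness to it follows from the choice.

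Upstream sequence is shown for 3 of these genes. Dusp5 was the phosphatase nearest to Dusp6 in its profile across the mice, each centred on its own mean, and Dusp1 did not follow them. RefSeq windows on GRCm38.p6 matched 8 of the 10 genes by symbol (not Dusp4 and Dusp9). Each line runs 5′ to 3′ on the strand of the gene and ends at the base before the first annotated exon base, with motif matches in capitals.
Dusp1, chr17:26508520-26508722, minus strand: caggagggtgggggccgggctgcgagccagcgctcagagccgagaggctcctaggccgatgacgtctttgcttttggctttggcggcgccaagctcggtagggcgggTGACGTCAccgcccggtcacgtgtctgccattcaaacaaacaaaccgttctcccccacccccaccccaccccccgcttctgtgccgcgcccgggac
Dusp5, chr19:53528895-53529108, plus strand: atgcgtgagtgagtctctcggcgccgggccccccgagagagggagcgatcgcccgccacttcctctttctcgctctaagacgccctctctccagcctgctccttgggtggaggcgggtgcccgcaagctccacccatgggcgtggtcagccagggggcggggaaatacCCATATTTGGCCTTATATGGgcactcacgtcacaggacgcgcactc
Dusp6, chr10:99262981-99263230, plus strand: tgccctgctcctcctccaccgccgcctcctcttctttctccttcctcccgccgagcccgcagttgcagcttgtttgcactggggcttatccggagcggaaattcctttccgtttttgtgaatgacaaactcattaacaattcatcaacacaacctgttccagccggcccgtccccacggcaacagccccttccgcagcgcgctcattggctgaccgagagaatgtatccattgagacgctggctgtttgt
The letters searched, on both strands, were the cyclic AMP response element TGACGTCA, the AP-1 site TGACTCA, the ETS site CCGGAAG and the CArG box, the site bound by serum response factor. Dusp1 held 1 cyclic AMP response element, which starts 96 bases before the first exon base, and Dusp8 was the other member with one, against 1.79% of all 32851 windows of 300 bases. Dusp5 held 2 CArG boxes end to end, which start 46 and 36 bases before the first exon base, against 1.63% of all windows with at least 1. None of the 8 member windows held the ETS or AP-1 letters, which were in 8.86% and 5.20% of all windows. Only these exact letters were searched, so other forms of the ETS and AP-1 sites were not counted. A match of letters is a description of the sequence, and binding was not measured in these cells.

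The substrates and neighbours of the phosphatases were read from the same fit. Of the 10 MAP kinase genes 0 were called and 0 had an unadjusted p under 0.05, with a median log2 fold change of -0.0081. Mapk3 (ERK1) stood at 148, 143 and 154 CPM in WT and at 153, 147 and 152 CPM in MUT (log2 fold change 0.025, SE 0.063). Mapk7, which encodes ERK5, had a log2 fold change of 0.065 (SE 0.083). The 10 RAF and MAP kinase kinase genes above them likewise had 0 called and 0 with an unadjusted p under 0.05 (median 0.034), with the ERK activator Map2k2 at 0.034 (SE 0.074) and the JNK activator Map2k7 at -0.048 (SE 0.058).

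Of 16 tested ERK feedback and target genes 0 were called, 6 had log2 fold changes above 0 and 10 below, and the median was -0.067. The 1 with an unadjusted p under 0.05 was Spry1, at 21.8, 23.4 and 24.5 CPM in WT and 20.7, 18.1 and 18.4 CPM in MUT (log2 fold change -0.28, SE 0.101, adjusted p = 0.998 by edgeR). Its MUT values lay below all WT values in CPM, as did those of 590 of the 19656 genes tested. Egr1, an immediate ERK target, had a log2 fold change of -0.0096 (SE 0.112), and Fos one of -0.12 (SE 0.135). Of the 19 immediate early genes of dissociation, on which Dusp1 was not placed, 17 had log2 fold changes below 0 with a median of -0.15 and 0 were called. The 1 of these with an unadjusted p under 0.05 was Jund, an AP-1 subunit (log2 fold change -0.25, SE 0.084, adjusted p = 0.998 by edgeR). A further list joined MAP kinase phosphatases outside the family, not all of dual specificity, with atypical dual-specificity phosphatases. Of its 18 tested genes 0 were called and 0 had an unadjusted p under 0.05 (median -0.026). Among them were Dusp11, an RNA phosphatase, at 70.6 to 81.9 CPM and Dusp18 at 40.4 to 53.0 CPM.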

How the data were processed

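RNA of sorted Aundiff from 3 WT and 3 MUT mice was sequenced as TruSeq Stranded mRNA libraries. Per the file headers, the authors' deposited values are raw counts of read pairs per gene name, made with featureCounts 1.6.2 on GENCODE M17 with tdTomato added, without a strand setting. STAR, FastQC and GRCm38.p6 are named in the submitters' processing notes, and the version of STAR is not given in the sources used here. Counting without strand cannot tell a gene from an antisense partner.

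Genes were filtered (filterByExpr), scaled (TMM) and tested with edgeR 4.0.16 (quasi-likelihood, genotype as the only term, R 4.3.3), with Benjamini-Hochberg adjustment over the 19656 genes tested and an FDR of 0.1. The study used DESeq2, which was run as an alternative (1.42.0), as was limma voom (3.58.1). Single genes were tested by an exact two-sided permutation test of log2 CPM (prior count 2) over 20 assignments of the 6 mice. FPKM was computed from the counts, the TMM library sizes and the exon length in the tables. The procedure was tested on simulated counts.

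The deviations of same-numbered WT and MUT samples from their group means had correlations of 0.30, 0.16 and 0.40 over the 10583 genes above 10 CPM. The number was therefore also fitted as a block. The pairing comes from these correlations, since the labels do not say what a number marks. Correlations between differently numbered samples were not set beside them. The block was fitted to the same counts, so its standard errors do not test the pairing. Replicates of a group differed beyond counting noise.

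The 10 phosphatases and the other gene lists were chosen with earlier results of these data known. Outside the members, up to 4 genes per pathway or spermatogonia list were named: those with the smallest p under 0.05, otherwise the 2 with the highest level. Mapk3, Spry4, Etv5, Egr1 and Fos were always named, and the 3 nearest to Dusp6 in pattern. One further gene that the rule names is not reported here. Gfra1, Zbtb16, Lyz2 and the CArG box were added after the data were seen. Depth differed little between libraries, and p-values measure the spread between these mice.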

Additional observations from a re-analysis of the deposited data

How the results depend on the processing

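The count of phosphatases called was 0 under each alternative tried, with adjusted p-values of 0.424 or more: DESeq2, limma voom, DESeq2 size factors, other filters, an FDR of 0.05, the replicate block and each library left out. The genes called among all tested were 2, and 9 by DESeq2, 4 by limma voom, 5 with no filter, 0 with at least 10 counts in every sample (479 genes with an unadjusted p under 0.05), 1 at the stricter FDR, 13 with the replicate block, 55 with the replicate block in DESeq2, and 0 to 6 with 1 library left out. The 0 came without MUT 2 (292 at the same unadjusted p), and the count was 5 without WT 3, 1 without MUT 1 and 6 without MUT 3. The block changed no call of a phosphatase. Dusp4, Dusp5, Dusp6, Dusp7, Dusp10 and Dusp16 kept their direction in 13 of 13 alternatives, but their size moved with 1 library left out: -0.40 (without MUT 1) to -0.030 (without MUT 3) for Dusp4, -0.33 to -0.12 for Dusp5, -0.37 to -0.19 for Dusp6, -0.13 to -0.026 for Dusp7, 0.014 to 0.19 for Dusp10 and 0.037 to 0.13 for Dusp16. It ran from -0.29 to 0.039 for Dusp1, -0.098 to 0.24 for Dusp2, -0.12 to 0.21 for Dusp8 and -0.055 to 0.071 for Dusp9. The reversed values without WT 3 were 0.039 for Dusp1, -0.047 for Dusp9 and -0.12 for Dusp8, those without MUT 2 were -0.098 for Dusp2, -0.055 for Dusp9 and -0.079 for Dusp8, and Dusp2 was at -0.0096 without WT 1. Without division by exon length the order differs and so do some of the 9 neighbouring pairs: 3 pairs held their direction in all mice, against 6 per length, Dusp1 was above Dusp6 in 4 of 6 mice, and the smallest adjusted exact permutation p was 0.0938. The cause of these shifts was not tested.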
